A study of Caenorhabditis elegans with 4 samples.

Results

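The superoxide dismutase genes *sod-1* to *sod-5* and the catalase genes *ctl-1* to *ctl-3* of *Caenorhabditis elegans* were followed in L1 larvae, the larval stage that hatches from the egg. They were picked by gene name, and they make up 8 of the 19913 genes in the table of counts. All 8 passed the filter on low counts that left 15101 genes for the tests. RNA-Seq was performed on whole animals in 2 libraries of *pry-1(mu38)* and 2 libraries of N2, the wild-type strain. The allele *mu38* is a nonsense mutation of *pry-1*, which encodes the worm Axin, a scaffold protein that restrains canonical WNT signaling. Animals of both strains were grown on standard medium and synchronized by repeated bleaching, with no other treatment. The mutant is represented by a single allele, and each library pools many whole larvae, so the cells that a transcript came from cannot be read from the counts.

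Superoxide dismutases turn superoxide, a by-product of respiration and of oxidase enzymes, into oxygen and hydrogen peroxide, and catalases split hydrogen peroxide into water and oxygen. *sod-1* and *sod-5* encode the major and the minor cytosolic copper/zinc enzyme, and *sod-4* encodes a copper/zinc enzyme that is secreted or held at the cell surface. *sod-2* and *sod-3* encode the major and the minor manganese enzyme of the mitochondrial matrix. Among the catalases, *ctl-2* encodes the peroxisomal enzyme that accounts for most catalase activity in the worm, *ctl-1* a cytosolic enzyme, and *ctl-3* a catalase seen in pharyngeal muscle and neurons. *sod-3* is a widely used readout of DAF-16, the FOXO transcription factor of the insulin pathway.

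Counts on genes added up to between 27741375 and 33230854 per library. The *pry-1(mu38)* libraries were closer to each other than the N2 libraries were: the SD over tested genes of the log2 difference between replicates was 0.493 in *pry-1(mu38)* and 0.833 in N2. In edgeR's quasi-likelihood test, adjusted by the Benjamini-Hochberg method, 1 gene passed the threshold of 0.05, or 0.00662% of those tested. It was *srw-85*, a serpentine receptor gene, at 8.69 and 7.98 CPM (counts relative to the scaled library size) in *pry-1(mu38)* and 198 and 193 CPM in N2. The transcript of *pry-1* was present in the mutant, at 118 and 108 CPM, against 70.5 and 61.9 CPM in N2, so its level does not test the strain labels. Of 37 markers of tissues and of molting, 36 were in the table, and each of these had counts in all 4 libraries. With 2 libraries against 2, an exact permutation test cannot give a p below 0.333, and all p-values measure the spread between these libraries only. In RNA of whole animals, fewer cells of a type and less RNA per cell cannot be told apart.

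Per length, the cytosolic *sod-1* and the peroxisomal *ctl-2* had the highest mean level of the 8 transcripts in each strain, and *ctl-3* the lowest. In N2 replicate 2 alone *sod-4* was above *ctl-2*. On the scale of CPM per kilobase of exon, *sod-1* had a level of 201 ± 4.81 in *pry-1(mu38)* and 234 ± 74.3 in N2 (SD, n = 2 each, as for the other levels here). *ctl-2* had 152 ± 19.6 in *pry-1(mu38)* and 84.95 ± 27.6 in N2, and *sod-2* had 62.0 ± 2.47 in *pry-1(mu38)* and 50.4 ± 9.75 in N2. The remaining transcripts spanned a wide range. *sod-4* had 36.5 ± 3.37 CPM per kilobase in *pry-1(mu38)* and 68.2 ± 28.0 in N2, and *ctl-1* had 14.4 ± 1.75 in *pry-1(mu38)* and 8.22 ± 2.72 in N2. The minor forms were low: *sod-3* had 5.88 ± 1.16 in *pry-1(mu38)* and 4.48 ± 3.17 in N2, *sod-5* had 3.33 ± 0.416 in *pry-1(mu38)* and 12.5 ± 11.9 in N2, and *ctl-3* had 1.55 ± 0.383 in *pry-1(mu38)* and 3.64 ± 2.87 in N2. In *pry-1(mu38)* the order from high to low was *sod-1*, *ctl-2*, *sod-2*, *sod-4*, *ctl-1*, *sod-3*, *sod-5* and *ctl-3* in both libraries, so that no neighbours in it overlapped. In N2 the mean levels ran *sod-1*, *ctl-2*, *sod-4*, *sod-2*, *sod-5*, *ctl-1*, *sod-3* and *ctl-3*. There the ranges over the N2 libraries were apart only between *sod-1* and *ctl-2* and between *sod-2* and *sod-5*, and those of the other neighbours overlapped, although *sod-3* was above *ctl-3* within each library. *sod-1* was the highest and *ctl-3* the lowest of the 8 in each of the 4 libraries. The lengths came from an annotation of another genome build than the counts, and transcripts that differ in how much of their sequence is unique are not fully comparable on this scale.

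**Figure D1:**
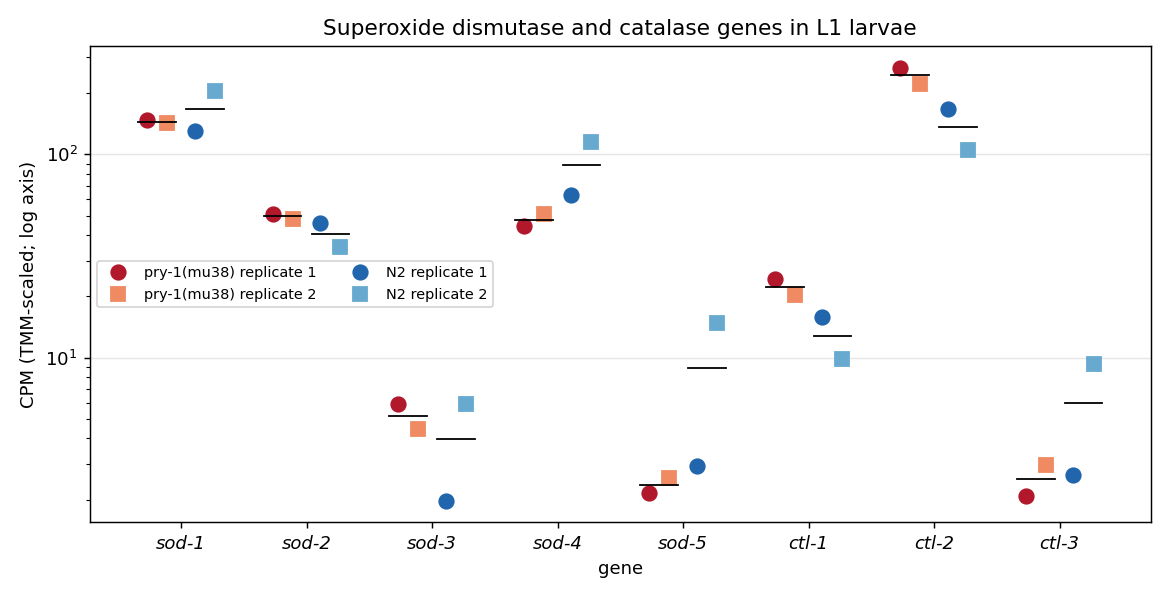
CPM of each superoxide dismutase and catalase gene on a log axis, with a point for each library and a black line at the mean of a strain (n = 2), *pry-1(mu38)* left of N2. The *ctl-1* and *ctl-2* points of *pry-1(mu38)* lie above both N2 points, those of *sod-4* and *sod-5* lie below both, and the N2 replicates of *sod-5* are apart at 2.93 and 14.8 CPM.

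Among the catalases, *ctl-1* and *ctl-2* had more counts in *pry-1(mu38)*, and *ctl-3* did not separate the strains. *ctl-2* had 267.6 and 223.0 CPM in *pry-1(mu38)* and 168.3 and 105.5 CPM in N2. Both mutant libraries were above both N2 libraries, and the log2 fold change of *pry-1(mu38)* over N2 was 0.84 (SE 0.27, adjusted p = 0.337, edgeR). *ctl-1* had 24.3 and 20.4 CPM in *pry-1(mu38)* and 15.8 and 9.79 CPM in N2. The libraries were in the same order as for *ctl-2*, without overlap between the strains, and the log2 fold change was 0.81 (SE 0.30, adjusted p = 0.337). *ctl-3* had 2.08 and 2.96 CPM in *pry-1(mu38)* and 2.63 and 9.25 CPM in N2. Only N2 replicate 2 stood above the rest, and N2 replicate 1 lay between the mutant libraries. The log2 fold change of *ctl-3* was -1.25 (SE 0.65, adjusted p = 0.373), and without N2 replicate 2 it was -0.068. None of the catalase genes passed in this fit. Without N2 replicate 2 the log2 fold change was 0.54 for *ctl-2* and 0.50 for *ctl-1*. Added up, the 3 catalase transcripts came to 294 and 246 CPM in *pry-1(mu38)* and to 187 and 125 CPM in N2, of which *ctl-2* held the greater part in each library.

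The ratio of the catalase transcripts to each other showed that *ctl-1* and *ctl-2* kept step while *ctl-3* did not. *ctl-2* had 11.02 and 10.9 counts for each *ctl-1* count in *pry-1(mu38)*, and 10.7 and 10.8 in N2. The 95% counting intervals of the 4 ratios overlap, the widest being 9.61 to 12.1 in N2 replicate 2. *ctl-3* had 0.0857 and 0.145 counts for each *ctl-1* count in *pry-1(mu38)*, and 0.167 and 0.944 in N2. The ratio in N2 replicate 2, with an interval of 0.808 to 1.10, stood apart from the other 3 libraries, whose intervals all end at or below 0.214. These intervals cover counting error only. In the annotation of build WBcel235 the 3 genes follow each other on one strand of chromosome II in the order *ctl-2*, *ctl-1*, *ctl-3*, with no protein-coding gene between them, so *ctl-1* lies between its relatives. Reads that aligned at several places count for no gene, and between 8.04% and 11.6% of the reads of a library were of that kind, so stretches that the catalases share would be undercounted. How much sequence they share was not assessed.

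**Figure D2:**
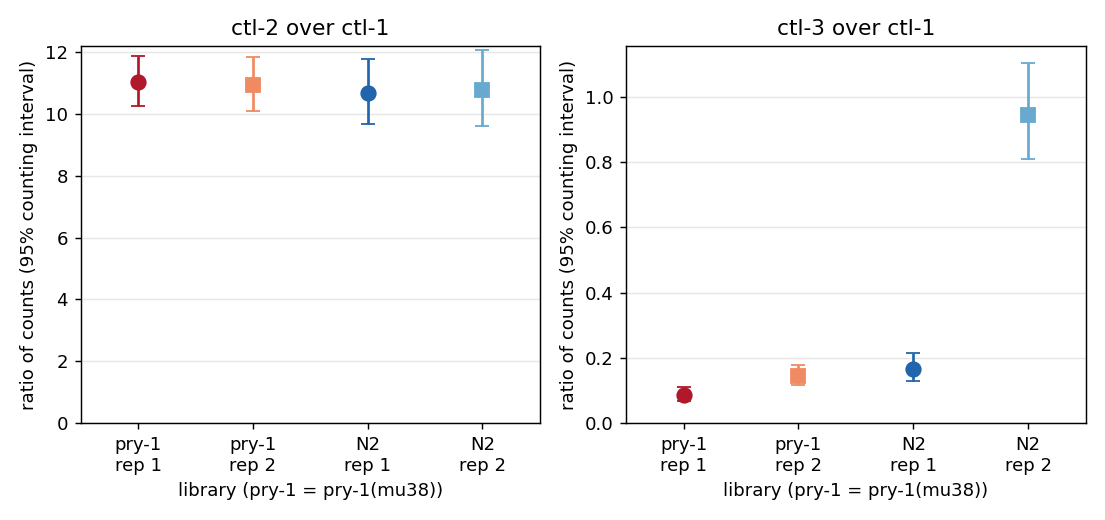
Ratio of counts within each library, *ctl-2* over *ctl-1* on the left and *ctl-3* over *ctl-1* on the right, with 95% counting intervals as bars and *pry-1(mu38)* left of N2. The first ratio stays between 10.7 and 11.02 in the 4 libraries, and the second is 0.944 in N2 replicate 2 against 0.0857 to 0.167 in the others.

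Of the copper/zinc superoxide dismutases, *sod-4* and *sod-5* had lower CPM in *pry-1(mu38)*, and *sod-1* overlapped. *sod-1* had 147.0 and 142.1 CPM in *pry-1(mu38)* and 130.5 and 206.1 CPM in N2. The mutant libraries lay between the N2 libraries, and the log2 fold change was -0.22 (SE 0.25, adjusted p = 0.637, edgeR). Leaving out N2 replicate 2 gave 0.14, and leaving out N2 replicate 1 gave -0.51, so the direction of *sod-1* depended on a single N2 library. *sod-4*, the secreted or surface-bound form, had 44.6 and 50.8 CPM in *pry-1(mu38)* and 63.2 and 114.9 CPM in N2. Both mutant libraries were below both N2 libraries, with a log2 fold change of -0.90 (SE 0.32, adjusted p = 0.337), or -0.41 without N2 replicate 2. *sod-5*, the minor cytosolic form, had 2.14 and 2.56 CPM in *pry-1(mu38)* and 2.93 and 14.8 CPM in N2, or 69 and 82 counts in *pry-1(mu38)* and 80 and 489 counts in N2. The strains did not overlap in CPM, but they did in counts. N2 replicate 1 was close to the mutant libraries, and most of the difference lay in N2 replicate 2. The log2 fold change of *sod-5* was -1.92 (SE 0.79, adjusted p = 0.337), and -0.32 without N2 replicate 2.

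Of the manganese enzymes, *sod-2* separated the strains by a small amount and *sod-3* overlapped. *sod-2*, the major mitochondrial form, had 51.1 and 48.3 CPM in *pry-1(mu38)* and 46.0 and 34.9 CPM in N2. Both mutant libraries were above both N2 libraries, by a log2 fold change of 0.30 (SE 0.20, adjusted p = 0.445, edgeR), or 0.11 without N2 replicate 2. *sod-3*, the minor form, had 5.90 and 4.46 CPM in *pry-1(mu38)* and 1.98 and 5.92 CPM in N2. The N2 libraries enclosed the mutant libraries, and the log2 fold change was 0.38 (SE 0.56, adjusted p = 0.709). *sod-3* was the member whose direction turned most with the N2 library used: the log2 fold change was 1.38 without N2 replicate 2 (adjusted p = 0.123) and -0.19 without N2 replicate 1 (adjusted p = 0.560).

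**Figure D3:**
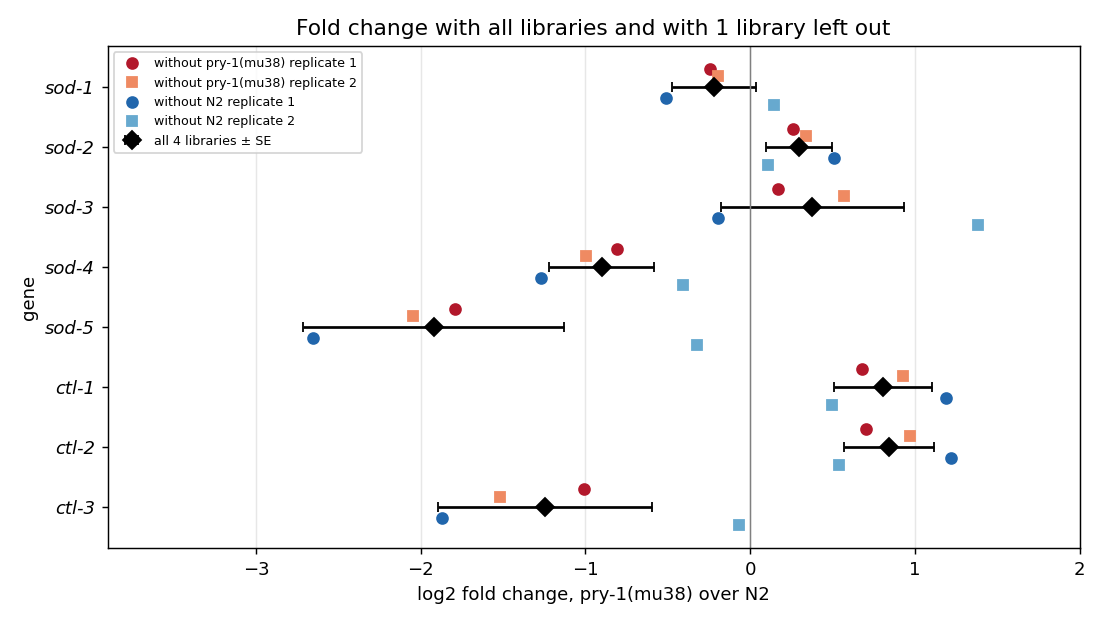
Log2 fold change of *pry-1(mu38)* over N2 for each gene, as a diamond with its SE for all 4 libraries and as smaller points with 1 library left out. For *sod-1* and *sod-3* the points fall on either side of 0, and for *sod-5* they run between -2.65 and -0.32.

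Across the 8 genes, 4 log2 fold changes were positive and 4 negative, with a median of 0.040, against -0.023 for all tested genes. In edgeR's quasi-likelihood test 0 of 8 passed the adjusted threshold, where 0.00662% of all genes did. At an unadjusted p under 0.05 there were 3 members, *ctl-1*, *ctl-2* and *sod-4*, beside 14.6% of all genes. Both mutant libraries were above both N2 libraries in 3 members (*sod-2*, *ctl-1* and *ctl-2*), beside 29.1% of all genes, and below both in 2 members (*sod-4* and *sod-5*), beside 28.0%. In either direction that is 5 of 8 members, beside 57.0% of all genes. With the same design 0 of 8 passed in DESeq2, which called 3.22% of all genes, in edgeR's exact test, which called 1.88%, and in DESeq2 after quantile normalization, which called 3.36%. Each of these 3 tools gave 4 members at an unadjusted p under 0.05. Over all 15101 tested genes there were 2449 in DESeq2, 2415 in the exact test and 2454 after quantile normalization. The lowest adjusted p among the members was 0.120 in DESeq2, 0.195 in the exact test and 0.127 after quantile normalization.

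The spread between the N2 libraries was larger than that between the mutant libraries in 8 of 8 members. Over all tested genes it was larger in N2 as well, with a median absolute log2 difference between replicates of 0.461, against 0.144 in *pry-1(mu38)*. N2 replicate 2 exceeded N2 replicate 1 by 2.33 on the log2 scale for *sod-5*, by 1.81 for *ctl-3* and by 1.58 for *sod-3*. These differences were larger than those of 98.0%, 94.5% and 91.9% of all tested genes. The same difference between the *pry-1(mu38)* libraries, replicate 2 over replicate 1, was 0.25 for *sod-5*, 0.51 for *ctl-3* and -0.40 for *sod-3*. *ctl-1*, *ctl-2* and *sod-2* ran the other way in N2, at -0.69, -0.67 and -0.40, so N2 replicate 2 was the lowest library for these 3 genes and the highest for the other 5. Fitted without N2 replicate 1, which leaves N2 replicate 2 as the only N2 library, 7 of 8 members passed, all but *sod-3*, where 41.5% of all genes did. Fitted without N2 replicate 2, 0 of 8 passed, beside 1.28% of all genes. With *pry-1(mu38)* replicate 1 left out, 0 of 8 passed, beside 0.523% of all genes, and with *pry-1(mu38)* replicate 2 left out again 0 of 8, beside 3.68%. In these fits the lone library of a strain was assumed to vary like the other strain.

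The make-up of each enzyme family was then compared within libraries, where library size cancels. By counts per kilobase, *sod-1* made up 84.6% and 82.3% of the copper/zinc enzymes in *pry-1(mu38)* and 77.5% and 72.4% in N2, a mean difference of 8.46 percentage points. *sod-4* made up 14.1% and 16.2% in *pry-1(mu38)* and 20.7% and 22.3% in N2. The shares of *sod-4* differed little between replicates and did not overlap between the strains, at the smallest p the design allows (exact permutation test, two-sided, p = 0.333). *sod-5* made up 1.26% and 1.51% in *pry-1(mu38)* and 1.77% and 5.30% in N2. The major *sod-2* held 90.5% and 92.2% of the manganese enzymes in *pry-1(mu38)* and 96.2% and 86.6% in N2, so there the N2 libraries enclosed the mutant libraries. Among the catalases, *ctl-2* held 90.8% and 90.2% in *pry-1(mu38)* and 89.9% and 84.5% in N2, and *ctl-1* held 8.54% and 8.57% in *pry-1(mu38)* and 8.73% and 8.14% in N2. The share of *ctl-1* varied by less than 1 percentage point over the 4 libraries. *ctl-3* held 0.697% and 1.18% in *pry-1(mu38)* and 1.39% and 7.32% in N2.

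Set against the superoxide dismutases, catalase transcripts took a larger share in *pry-1(mu38)*. They made up 36.98% and 33.4% of the counts per kilobase of all 8 genes in *pry-1(mu38)* and 28.4% and 14.8% in N2. As plain counts the catalase share was 53.96% (95% Wilson interval 53.2 to 54.7) and 49.8% (49.0 to 50.6) in *pry-1(mu38)*, and 43.3% (42.4 to 44.2) and 24.8% (24.2 to 25.5) in N2. In both strains the replicates were further apart than counting error covers. The mean difference of 13.6 percentage points per kilobase came at p = 0.333 (exact permutation test, smallest p possible). It was 6.84 points without N2 replicate 2 and 20.4 points without N2 replicate 1. Altogether 9 shares were tested, and the lowest p after Benjamini-Hochberg adjustment was 0.50, again by exact permutation. The summed levels of the superoxide dismutases and of all 8 genes overlapped between the strains, while those of the catalases, given above, did not. The 5 superoxide dismutases together had 251 and 248 CPM in *pry-1(mu38)* and 245 and 377 CPM in N2, and all 8 genes had 545 and 495 CPM in *pry-1(mu38)* and 431 and 501 CPM in N2.

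**Figure D4:**
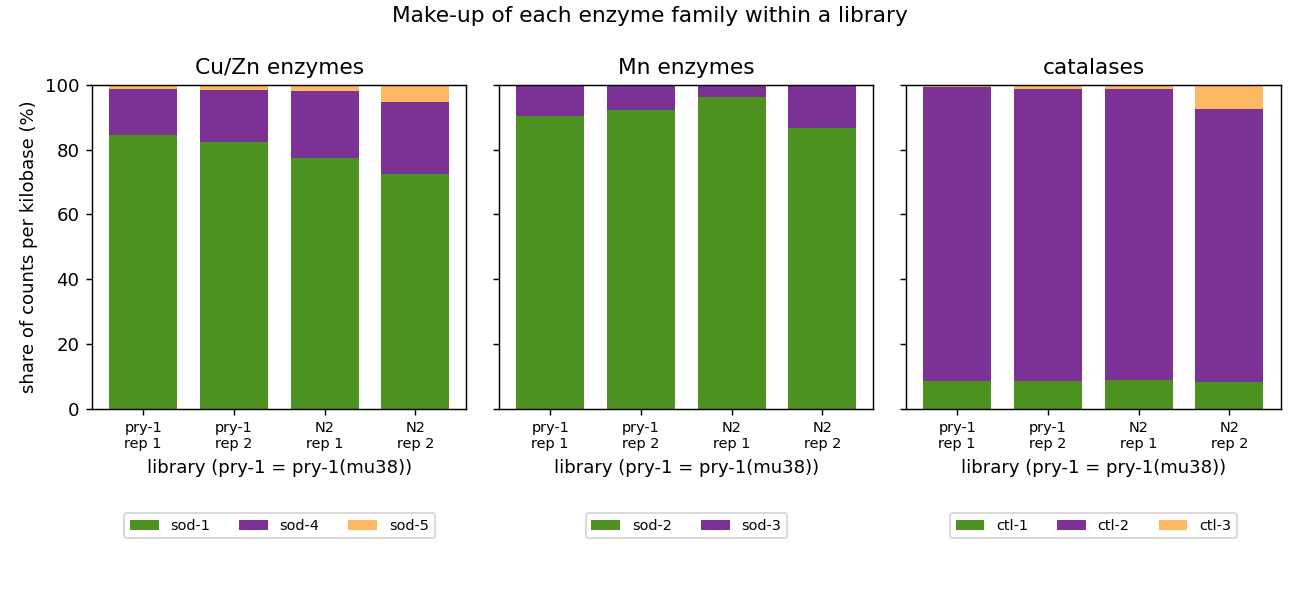
Share of counts per kilobase that each gene holds within its family, a stacked bar for each library with *pry-1(mu38)* left of N2. *sod-4* takes 14.1% and 16.2% of the copper/zinc enzymes in *pry-1(mu38)* and 20.7% and 22.3% in N2, and the minor *sod-5* and *ctl-3* are widest in N2 replicate 2.

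Parts of 5 members overlap exons of a gene on the opposite strand in the WBcel235 annotation, and the library kit does not mark the strand. The overlap was 175 bp of the 1306 bp of *sod-4* exons with *ctr-9*, a subunit gene of the PAF1 complex. It was 85 bp of *sod-1* with the non-coding RNA gene C15F1.13, 65 bp of *ctl-2* with Y54G11A.7, 65 bp and 24 bp of *sod-3* with C08A9.3 and *lido-1*, and 21 bp of *sod-2* with *dpt-1*. *sod-5*, *ctl-1* and *ctl-3* had no such overlap. Reads from these stretches cannot be assigned to a strand.

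Genes that act next to these enzymes were read from the same fit, as 9 lists with 103 distinct genes, of which 97 were tested. None passed the adjusted test. At an unadjusted p under 0.05 *pry-1(mu38)* was higher in 5 and lower in 7, beside 921 and 1288 of all 15101 tested genes. DESeq2 called 1, the peroxidase gene *skpo-2*, both with its own size factors and after quantile normalization, and edgeR's exact test called 0. Of all tested genes these called 3.22%, 3.36% and 1.88%. The strains did not overlap in 53 of the 97 tested list genes, 31 higher and 22 lower, a share near the 57.0% of all tested genes. The median log2 fold change of the list genes was 0.034, beside -0.023 for all tested genes. The lists were described by their counts and medians and were not tested as sets.

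The enzymes that share hydrogen peroxide with the catalases had no common direction. Of the 11 peroxiredoxin and glutathione peroxidase genes, both *pry-1(mu38)* libraries were higher in 5 and lower in 4. The shares among all tested genes were 29.1% and 28.0%. The median of the list was -0.012. The glutathione peroxidase gene *gpx-5* had 24.5 and 35.7 CPM in *pry-1(mu38)* and 47.3 and 118.6 CPM in N2 (log2 fold change -1.46, SE 0.48, adjusted p = 0.337, edgeR), and -0.66 without N2 replicate 2. Its relative *gpx-3* was at -1.55, and at -0.40 without that library, while *gpx-4*, at 1.48, rested on 12, 12, 2 and 6 counts. In the thioredoxin and glutathione system the median was 0.22, and 0.075 without N2 replicate 2. Here 7 of 15 tested genes were higher and 1 lower, beside 29.1% and 28.0% of all genes. The lower gene was *trx-1*, a thioredoxin of the ASJ sensory neurons, at 0.497 and 0.468 CPM in *pry-1(mu38)* and 1.06 and 1.36 CPM in N2. Its log2 fold change was -1.33 (adjusted p = 0.337, edgeR), and -1.14 without N2 replicate 2. The mitochondrial thioredoxin reductase gene *trxr-2* was at 0.48 and the glutaredoxin gene *glrx-21* at 0.59.

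The list of oxidant producers and heme peroxidases had the lowest median of the 9, a log2 fold change of -1.35, and -0.41 without N2 replicate 2. Both *pry-1(mu38)* libraries were lower in 4 of its 6 tested genes, beside 28.0% of all genes, and higher in 0, beside 29.1%. The oxidase genes themselves overlapped: *bli-3*, the dual oxidase of the cuticle, was at 0.10 and its relative *duox-2* at -1.17, and without N2 replicate 2 they were at 0.40 and 0.65. The 4 lower genes were *doxa-1*, *tsp-15* and the peroxidase genes *skpo-2* and *mlt-7*, the last at -0.22. *bli-3*, *duox-2* and *mlt-7* are named outside the rule for named genes, after their values had been seen. The peroxidase gene *skpo-2* had 7.23 and 17.2 CPM in *pry-1(mu38)* and 19.7 and 92.8 CPM in N2 (log2 fold change -2.20, SE 0.84, adjusted p = 0.337, edgeR). *doxa-1*, the maturation factor of dual oxidase, had 7.36 and 11.5 CPM in *pry-1(mu38)* and 15.5 and 41.9 CPM in N2, and *tsp-15*, a tetraspanin that works with the dual oxidase BLI-3, had 4.63 and 6.70 CPM in *pry-1(mu38)* and 9.29 and 23.4 CPM in N2. Without N2 replicate 2 the log2 fold changes were -0.69 for *skpo-2* and -0.72 for *doxa-1* and *tsp-15*. Since both mutant libraries lay below both N2 libraries for these 3, leaving out a library could hardly turn the sign.

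Genes of the respiratory chain, of metal handling and of peroxisomes differed by small amounts, and none passed the adjusted test. In the respiratory chain, the main source of superoxide in the matrix where *sod-2* and *sod-3* act, both *pry-1(mu38)* libraries were higher in 11 of 16 genes, beside 29.1% of all genes, and lower in 0, beside 28.0%, with a median of 0.22, and 0.10 without N2 replicate 2. The largest were 0.43 for *clk-1*, a gene of ubiquinone synthesis, 0.42 for *ucr-1* of complex III and 0.35 for *gas-1* of complex I, and none had an unadjusted p under 0.05. The 8 tested genes of metal handling had a median of 0.086. Of them 6 overlapped between the strains and 2 were higher, beside 29.1% of all genes. The copper chaperone gene *cuc-1* was higher, at 37.7 and 41.0 CPM in *pry-1(mu38)* and 29.1 and 31.0 CPM in N2. So was the copper ATPase gene *cua-1*, at 205 and 199 CPM in *pry-1(mu38)* and 153 and 138 CPM in N2. *cua-1* was at 0.48 on the log2 scale (SE 0.15, adjusted p = 0.337, edgeR). Peroxisome biogenesis, which serves the organelle of CTL-2, had a median of -0.016. Of its 10 tested genes 1 was higher and 2 lower, beside 29.1% and 28.0% of all genes. The higher gene was *prx-2* at 0.28, and the lower were the import gene *prx-14* at -0.51 and *prx-19* at -0.046.

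The transcription factors known to control *sod* and *ctl* genes, and their other targets, had no direction in common. *daf-16* had 246.4 and 237.6 CPM in *pry-1(mu38)* and 246.5 and 420.8 CPM in N2, a log2 fold change of -0.46, and -0.032 without N2 replicate 2. *skn-1*, the Nrf factor of the oxidative stress response, overlapped, at 350 and 360 CPM in *pry-1(mu38)* and 338 and 488 CPM in N2 (log2 fold change -0.22, SE 0.23, adjusted p = 0.596, edgeR). Of the 17 regulators 2 were higher and 8 lower, beside 29.1% and 28.0% of all genes, with 0 at an unadjusted p under 0.05. The ones furthest from 0 were *wdr-23*, a repressor of SKN-1, at -0.69, and *pdk-1*, a kinase of the insulin pathway, at 0.54. Without N2 replicate 2 they were at -0.21 and 0.23. Of 7 tested DAF-16 targets other than *sod-3*, 3 were higher and 0 lower, beside 29.1% and 28.0% of all genes. *dod-3* had 53.1 and 51.8 CPM in *pry-1(mu38)* and 28.7 and 10.9 CPM in N2, *lys-7*, a lysozyme gene, had 6.55 and 7.11 CPM in *pry-1(mu38)* and 2.27 and 4.41 CPM in N2, and *nnt-1*, the mitochondrial transhydrogenase gene, was at 0.70, and at 0.18 without N2 replicate 2. As a list these had a median of 0.023, and 0.38 without N2 replicate 2. The 9 SKN-1 targets had a median of -0.57, and 0.034 without N2 replicate 2. Of them 0 were higher and 3 lower, beside 29.1% and 28.0% of all genes. The 3 were the glutathione S-transferase gene *gst-38* at -1.91, *sdz-8* at -1.72 and the nitrilase gene *nit-1* at -0.57. They were at -0.44, -0.42 and -0.17 without that library. *sdz-8* had 71.6 and 113.7 CPM in *pry-1(mu38)* and 123.8 and 484.7 CPM in N2, so N2 replicate 2 stood apart for it as for *sod-5*.

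**Figure D5:**
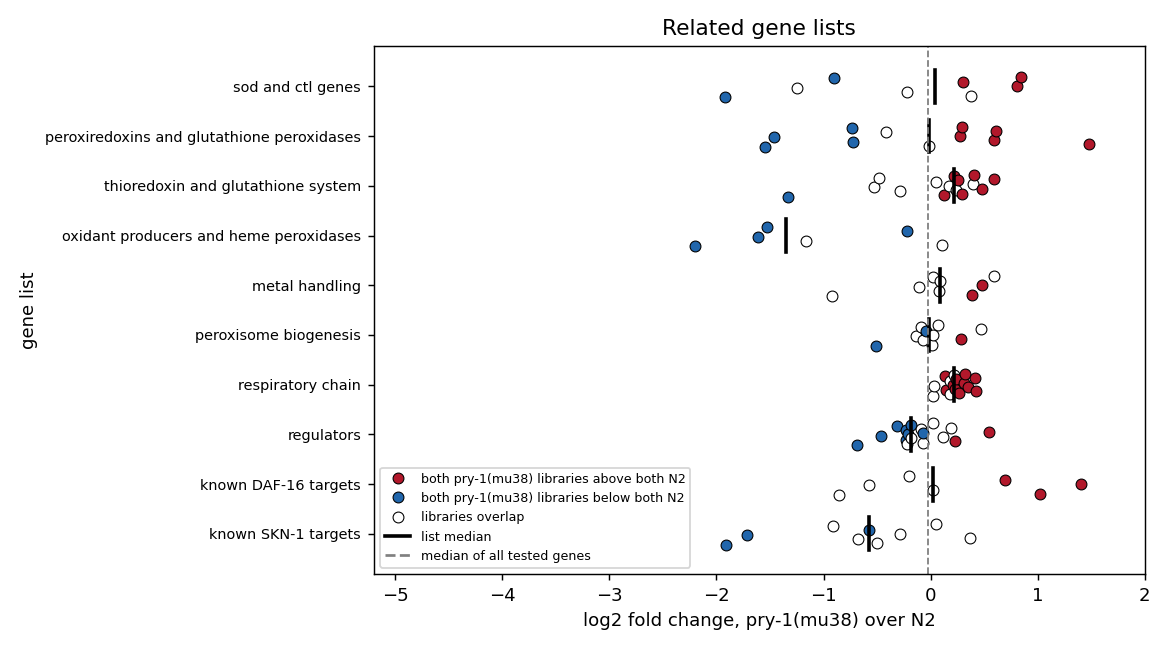
Log2 fold change of *pry-1(mu38)* over N2 for each tested gene of the superoxide dismutase and catalase group and of the 9 related lists, coloured by whether both mutant libraries lie above or below both N2 libraries. The list medians (black bars) lie between -1.35 for the oxidant producers and 0.22 for the respiratory chain and the thioredoxin system, and the dashed line is the median of all tested genes, -0.023.

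The member with the largest absolute log2 fold change was *sod-5*, and the genes whose pattern over the 4 libraries was most like it were sought among 14930 other genes with a mean of at least 10 counts. Likeness was the root mean square distance of log2 CPM after centring each gene on its own mean. The nearest were T23F2.4 at 0.0900, *gst-38* at 0.0953, ZK742.3 at 0.0960, T04C12.1 at 0.111 and C54F6.5 at 0.114. *gst-38* had 13.7 and 18.8 CPM in *pry-1(mu38)* and 21.99 and 99.9 CPM in N2. That N2 replicate 2 was its high library, as for *sod-5*, follows from the choice by this distance. Only 4 libraries of one stage enter the distance.

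Marker genes of some tissues were high in the same N2 library. The summed level of the 2 pharynx muscle markers in the table, *myo-2* and *tnc-2*, was 87.5 and 204 CPM in *pry-1(mu38)* and 332 and 969 CPM in N2, the order of the libraries that *sod-5* had. Body wall muscle markers summed to 11305 and 11332 CPM in *pry-1(mu38)* and 11615 and 21192 CPM in N2. Neuronal markers summed to 617 and 669 CPM in *pry-1(mu38)* and 707 and 949 CPM in N2, but they did not all follow this sum. In the N2 libraries *rab-3* had 110 and 219 CPM and *snt-1* 172 and 286 CPM. *snb-1* had 176 and 191 CPM there and *unc-64* 222 and 223 CPM. *unc-119* was higher in the mutant, at 32.3 and 32.1 CPM in *pry-1(mu38)* and 26.7 and 30.1 CPM in N2. The sum of the intestinal markers differed less, at 2225 and 2081 CPM in *pry-1(mu38)* and 2301 and 2377 CPM in N2, but single markers went opposite ways. In the N2 libraries *vha-6* had 598 and 459 CPM and *ges-1* 30.2 and 21.9 CPM, while *act-5* had 910 and 1110 CPM. *elt-2* and *opt-2* were also lower in N2 replicate 2 than in N2 replicate 1, and *ifb-2* was higher. The sum of the molting and cuticle markers was lowest in N2 replicate 2, at 840 and 964 CPM in *pry-1(mu38)* and 875 and 569 CPM in N2. Not each of these markers followed the sum. *mlt-10* and *lin-42* were highest in N2 replicate 2, and *qua-1* and *dpy-10* were lowest in *pry-1(mu38)* replicate 1. The 3 tested hypodermal markers summed to 151 and 157 CPM in *pry-1(mu38)* and 168 and 115 CPM in N2. The 3 tested germ line markers summed to 10.8 and 12.63 CPM in *pry-1(mu38)* and 11.7 and 25.2 CPM in N2. Coelomocyte markers summed to 18.2 and 20.1 CPM in *pry-1(mu38)* and 14.5 and 32.4 CPM in N2. Both sums were again highest in N2 replicate 2, although the germ line marker *pgl-3* was highest in *pry-1(mu38)* replicate 1. The part of these differences in the values of *sod-3*, *sod-5*, *ctl-3* and the other members was not tested.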

How the data were processed

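The authors deposited raw counts of reads for each gene, as whole numbers, for 2 *pry-1(mu38)* and 2 N2 libraries. The sources describe trimming, mapping to build ce6 (with Bowtie in the methods and BWA in the series description), eXpress, quantile normalization and DESeq. The counts are neither eXpress estimates nor quantile normalized, and the counting tool and its strand setting are not given in the sources used here. Summary lines, which name no gene, were left out. The reads aligned at several places that they list made up 8.04% to 11.6% of a library.

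Genes were kept by filterByExpr (minimum count 10), library sizes were scaled by TMM (factors 0.985 to 1.02), and the strains were compared with edgeR 4.0.16 in R 4.3.3 by the quasi-likelihood test, with no covariate, Benjamini-Hochberg adjustment over all 15101 genes and a threshold of 0.05. The SE was the absolute log2 fold change divided by the square root of F. Depth was 27741375 to 33230854 counts on genes, and counting intervals were taken at 95%. Shares were compared by exact permutation. The Ensembl annotation of WBcel235 served for exon lengths, overlaps and gene order only. The test was first tested on simulated data.

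The members, the lists and the tests were chosen with earlier results of these data known. Named genes were the 8 members, up to 3 non-overlapping genes with the largest fold change from each list, *daf-16*, *skn-1*, *pry-1*, *srw-85* and the 5 genes nearest to *sod-5*. Of the list genes, 18 were found under a sequence name given by RefSeq. *trx-5*, *skpo-1*, *skpo-3*, *prx-10* and the marker *myo-1* matched no name in the table. *smf-2*, *scl-1* and the markers *lin-26* and *nos-2* did not pass the filter, and sums of markers leave these markers out. Alternatives were DESeq2 1.42.0, edgeR's exact test and its earlier quasi-likelihood version, no TMM, quantile normalization (limma 3.58.1) with DESeq2, other filters, a replicate block, and each library left out. Figures were drawn with matplotlib 3.10.9.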

Additional observations from a re-analysis of the deposited data

How the results depend on the processing

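All values here are of *pry-1(mu38)* over N2. Where 1 gene passed in the test across all genes, 486 passed in DESeq2, 284 in edgeR's exact test, 508 in DESeq2 after quantile normalization and 0 without a filter on low counts, where *srw-85* was at -4.53 (adjusted p = 0.0800). With a library left out the count was between 79 and 6267. The labels do not say that equal replicate numbers mark a shared culture, and with 2 pairs the numbers were not taken to pair the samples, although the deviations of same-numbered libraries correlated at 0.468 across genes. With a replicate block 2427 genes passed, or 16.1% of those tested, among them 5 members. These members were *sod-4* at -0.84, *sod-5* at -1.59, *ctl-1* at 0.84, *ctl-2* at 0.87 and *ctl-3* at -1.06. With a library left out between 0 and 7 members passed, and the log2 fold changes ranged from -0.51 to 0.14 for *sod-1*, 0.11 to 0.51 for *sod-2*, -0.19 to 1.38 for *sod-3*, -1.27 to -0.41 for *sod-4*, -2.65 to -0.32 for *sod-5*, 0.50 to 1.19 for *ctl-1*, 0.54 to 1.22 for *ctl-2* and -1.87 to -0.068 for *ctl-3*. *skn-1* ranged from -0.46 to 0.065. *sod-1* and *skn-1* turned positive without N2 replicate 2, and *sod-3* negative without N2 replicate 1. Of the related genes 1 passed in DESeq2, 1 after quantile normalization, 10 with the replicate block and 0 to 51 with a library left out. The difference in share turned sign with a library left out for *sod-2* (-4.86 to 4.75 percentage points), *sod-3* (-4.75 to 4.86) and *ctl-1* (-0.18 to 0.42). The causes were not tested. For the other 33 genes named, 395 values were computed under the alternatives, and 342 kept their direction and their side of the threshold. Most of these genes were named because their strains did not overlap, so with a library left out their direction could hardly turn. The lowest count of a member was 54, for *sod-3* in N2 replicate 1, so counting error weighs most on *sod-3*, *sod-5* and *ctl-3*.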
